A study of Arabidopsis thaliana with 2 samples.

Results

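The core cell cycle genes of Arabidopsis thaliana were compared between a wild-type and an ago1-36 library of whole seedlings. The set held 48 genes, chosen by their identifiers: A-, B- and D-type cyclins, cyclin-dependent kinases of the A and B classes, the KRP and SIM inhibitors, the E2F and retinoblastoma-related regulators, the syntaxin KNOLLE, replication proteins (MCM subunits and PCNA) and the CCS52A activators. Of these 48, 24 were among the 11666 genes listed in the deposited table, and the expression of the other 24 was not analysed here. Both groups were seedlings 12 days old, grown on MS plates with 3% sucrose at 23 °C with 16 h of light and 8 h of dark. One genotype was the wild type and the other the ago1-36 mutant, whose affected gene AGO1 encodes the main effector of plant microRNAs. No further allele, transgene or treatment is given in the labels. Each genotype had 1 library of whole seedlings, so no difference below has a replicate check or a p-value, and higher or lower refers to these libraries.

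In plants, D-type cyclins with the kinase CDKA move a cell out of G1, and the release of E2F factors from the retinoblastoma-related protein switches on replication genes. Later, B-type cyclins, A1-type cyclins and B-class kinases drive the entry into mitosis, and MYB3R factors control many of their genes through the MSA element, whose core reads AACGG. Inhibitors of the KRP and SIAMESE families hold the kinases back, and CCS52 proteins direct the anaphase-promoting complex to destroy mitotic cyclins. In leaves, these inhibitors and CCS52 proteins are known for moving cells from division to endoreduplication, in which DNA is copied without mitosis.

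Most listed D cyclins, which act in G1, were higher in ago1-36, and most listed genes of G2 and mitosis were lower. Of the D cyclins, 3 were higher by 1.67- to 2.57-fold, and a weakly expressed one had a higher value too. Ranked by log2 ratio among all genes kept for comparison, CYCD2;1 lay above 86.8% and the other D cyclins above 66.4% to 74.9%. Of the G2/M genes, 8 of the 9 listed were lower, by up to 2.21-fold, while 51.5% of all kept genes had a lower value. For CYCB2;1 and CYCB2;3 the 95% counting interval included equality. Among the G1/S genes, the replication genes MCM5 and PCNA2 differed little and CYCA3;2 was 1.41-fold higher. The inhibitors had no common direction. SIM and LGO were 2.36- and 2.2-fold lower and KRP2 and KRP6 were 1.56- and 1.72-fold higher, while KRP1 and KRP4 had slightly lower values. The summed level of the 6 listed B cyclins was 2.10 times that of the 4 listed D cyclins in the wild type, and 0.711 times in ago1-36. Without CYCD2;1, left out after its value was seen, the same ratio was 4.34 in the wild type and 1.77 in ago1-36, so CYCD2;1 decided which sum was larger in ago1-36.

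The promoters of 5 members are shown because they span the pattern: mitotic cyclins that were lower (CYCB1;2 and CYCA1;1), members rich in MSA cores that differed little (CYCB2;3 and KRP1), and the D cyclin with the largest difference (CYCD2;1). Each is the 250 bases before the annotated gene start, written 5′ to 3′ on the gene's strand from the RefSeq TAIR10.1 genome. Capitals mark the MSA core AACGG, or CCGTT where it lies on the other strand. The windows are chr5:1861704-1861953, chr1:16777353-16777602, chr1:7137829-7138078, chr2:9978091-9978340 and chr2:9556168-9556417, in the order printed, and all 5 genes lie on the minus strand.
CYCB1;2: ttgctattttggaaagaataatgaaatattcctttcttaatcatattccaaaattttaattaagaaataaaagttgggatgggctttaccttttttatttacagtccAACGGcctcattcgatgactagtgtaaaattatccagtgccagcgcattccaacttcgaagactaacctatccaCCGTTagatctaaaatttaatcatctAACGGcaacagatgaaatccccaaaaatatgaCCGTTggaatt
CYCA1;1: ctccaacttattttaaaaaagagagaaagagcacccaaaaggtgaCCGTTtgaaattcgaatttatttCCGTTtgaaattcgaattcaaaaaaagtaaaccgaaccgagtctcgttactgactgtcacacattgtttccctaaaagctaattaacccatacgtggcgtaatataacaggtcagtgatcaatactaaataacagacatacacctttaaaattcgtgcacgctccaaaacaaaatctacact
CYCB2;3: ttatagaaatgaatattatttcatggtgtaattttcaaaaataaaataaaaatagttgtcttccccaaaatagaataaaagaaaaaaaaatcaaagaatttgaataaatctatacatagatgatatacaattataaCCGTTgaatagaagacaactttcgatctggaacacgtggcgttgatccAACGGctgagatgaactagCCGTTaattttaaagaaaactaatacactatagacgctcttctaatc
KRP1: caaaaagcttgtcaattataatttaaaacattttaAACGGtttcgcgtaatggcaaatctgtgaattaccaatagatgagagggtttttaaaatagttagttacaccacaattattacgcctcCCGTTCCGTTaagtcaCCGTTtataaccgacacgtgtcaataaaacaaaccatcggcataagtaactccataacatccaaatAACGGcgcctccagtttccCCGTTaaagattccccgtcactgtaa
CYCD2;1: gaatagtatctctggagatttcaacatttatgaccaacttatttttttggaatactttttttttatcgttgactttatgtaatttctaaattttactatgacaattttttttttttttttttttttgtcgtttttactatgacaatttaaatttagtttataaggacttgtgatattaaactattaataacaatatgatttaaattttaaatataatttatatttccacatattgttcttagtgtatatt

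The window of CYCB1;2 held 4 cores, the nearest 7 to 11 bases before the start and the farthest 139 to 143. That of CYCA1;1 held 2, both on the other strand, at 178 to 182 and 201 to 205 bases. The 3 cores of CYCB2;3 lay from 43 to 114 bases before the start, and the 6 of KRP1 from 22 to 215. The window of CYCD2;1 held none.

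Expression is given as RPKM, the authors' read level of a gene per length and per library size. A gene was retained where either library reached 1 RPKM, which left 11373 genes, all 24 listed members among them. Reads recovered from the deposited values gave totals of about 13670000 for the wild type and 13590000 for ago1-36. Folds are plain RPKM ratios with exact Clopper-Pearson 95% intervals on these reads, which cover counting error only. AGO1 itself stood at 48.6 RPKM in the wild type and 5.59 in ago1-36, 8.70-fold lower (7.66 to 9.90). Counts past 2-fold were made on a log2 scale after adding 1 to both RPKM values (ago1-36 over wild-type), a scale that shrinks the differences of weakly expressed genes. Over all kept genes 19.6% were higher by 2-fold on that scale and 8.38% lower, and 51.5% had any lower value. By the plain ratio, 23.9% were higher and 11.9% lower by 2-fold. On that scale 1 member (CYCD2;1) was past 2-fold higher and 2 (SIM and LGO) past 2-fold lower, and by the plain ratio 2 were higher and 4 lower. The median log2 ratio was -0.15 for the 24 members and -0.04 for all kept genes. Genes of slightly higher level were scarce in the table. Between 0 and 0.4 on the log2 scale it held 453 kept genes. The neighbouring range of -0.4 to 0 held 2580 and that of 0.4 to 0.8 held 2108. No gene had a GFOLD score of 0. Among the members none lay between -0.07 and 0.46, so the counts of each direction describe the listed members and not all 48.

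**Figure D1:**
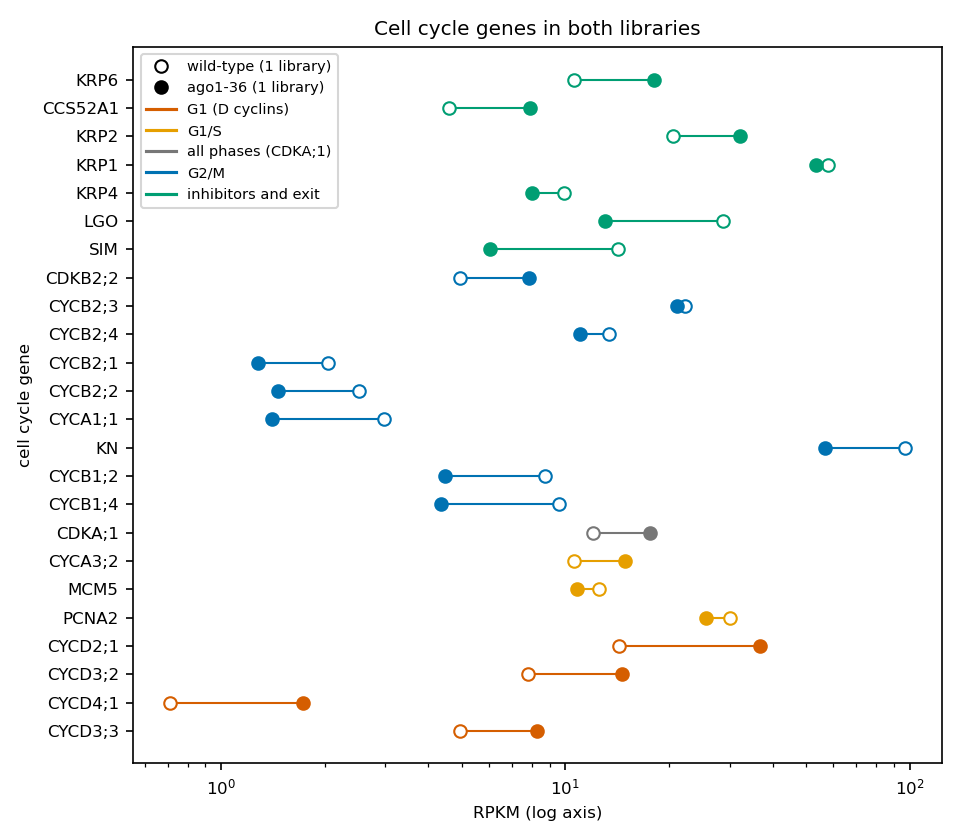
RPKM of the 24 listed members on a log axis, with open circles for the wild-type library and filled circles for the ago1-36 library, coloured by phase. The filled circle lies to the right for all 4 D cyclins and to the left for 8 of 9 G2/M genes.

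Among the D cyclins, the G1 partners of CDKA, CYCD2;1 (AT2G22490) stood at 14.3 RPKM in the wild type and 36.8 in ago1-36. It was 2.57-fold higher (2.26 to 2.92), with 336 and 857 reads, and lay above 86.8% of kept genes by its log2 ratio. CYCD3;2 stood at 7.80 and 14.6 RPKM, a 1.87-fold higher level in ago1-36 (1.53 to 2.30). Its annotated exons share 3.31% of their 50-base words with AT5G67265, a gene that overlaps it. CYCD3;3 stood at 4.96 and 8.29 RPKM, 1.67-fold higher (1.28 to 2.18). The D3 cyclins are known for keeping leaf cells dividing before they enter endoreduplication, and together this pair summed to 12.8 RPKM in the wild type and 22.9 in ago1-36. CYCD4;1 (AT5G65420) was the listed member of lowest level in the wild type, at 0.712 and 1.73 RPKM, from 17 and 41 reads. It was 2.43-fold higher with a wide interval (1.35 to 4.55), and passed the filter through the ago1-36 library alone. The 4 genes summed to 27.8 RPKM in the wild type and 61.4 in ago1-36, 2.21-fold higher. By log2 ratio CYCD3;2, CYCD4;1 and CYCD3;3 lay above 74.9%, 68.3% and 66.4% of kept genes. The median log2 ratio of the 4 was 0.75, and 0.83 for the 3 without CYCD4;1. Without CYCD3;2, which overlaps another gene, it was 0.67. Without CYCD2;1, the other 3 summed to 13.5 and 24.6 RPKM.

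CDKA;1, the main kinase that acts through all phases, stood at 12.0 RPKM in the wild type and 17.6 in ago1-36, 1.47-fold higher (1.24 to 1.74). CDKB2;2, a plant-specific kinase of G2 and mitosis, stood at 4.94 and 7.82 RPKM, 1.58-fold higher (1.19 to 2.11). It was the only listed G2/M gene with a higher value in ago1-36. Its annotated exons share 10.6% of their 50-base words with AT1G20925, a gene that overlaps it.

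Both listed B1 cyclins, activators of the mitotic kinases, were lower. CYCB1;4 (AT2G26760) stood at 9.60 RPKM in the wild type and 4.35 in ago1-36, with 211 and 95 reads, and was 2.21-fold lower (1.73 to 2.84). CYCB1;2 (AT5G06150), whose promoter is printed above, stood at 8.71 and 4.47 RPKM, 1.95-fold lower (1.53 to 2.50). Of its 50-base words, 11.2% are shared with AT1G34460. Summed, the B1 pair went from 18.3 RPKM in the wild type to 8.81 in ago1-36, 2.08-fold lower.

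The B2 cyclins had smaller differences than the B1 pair. CYCB2;2 stood at 2.52 RPKM in the wild type and 1.46 in ago1-36, 1.73-fold lower (1.09 to 2.79). For CYCB2;1 the levels were 2.04 and 1.28 RPKM, from 45 and 28 reads, and the interval of the 1.60-fold lower value included 1 (0.975 to 2.66). CYCB2;4 stood at 13.4 and 11 RPKM, 1.22-fold lower (1.01 to 1.47). CYCB2;3, the most abundant B cyclin, stood at 22.2 and 21.1 RPKM, and its interval included 1 (0.936 to 1.18 for wild type over ago1-36). Of its 50-base words, 17.3% are shared with AT1G20590. The B2 sum was 40.1 RPKM in the wild type and 34.8 in ago1-36, 1.15-fold lower. All 6 listed B cyclins thus had a lower value, with a median log2 ratio of -0.47, but the intervals of CYCB2;1 and CYCB2;3 reached past equality. Of all kept genes, 51.5% had a lower value, and the lower quartile of their log2 ratios was -0.48, close to this median.

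Of the A-type cyclins, the mitotic and the S-phase gene differed in opposite directions. CYCA1;1 (AT1G44110), a cyclin of G2 and mitosis, stood at 2.98 RPKM in the wild type and 1.41 in ago1-36, from 66 and 31 reads, 2.12-fold lower (1.36 to 3.36). CYCA3;2, of the A3 group that acts around S phase, stood at 10.6 and 14.9 RPKM, 1.41-fold higher (1.18 to 1.68).

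KNOLLE (KN, AT1G08560), the syntaxin that fuses vesicles into the cell plate of dividing cells, was the most abundant member. It stood at 97.1 RPKM in the wild type and 56.9 in ago1-36, with 1581 and 921 reads. This was 1.71-fold lower (1.57 to 1.85). KN shares 31.0% of its 50-base words with AT1G08550, a gene that overlaps it on the other strand. How the authors treated strand is not given in the sources used here, and the part of that overlap in the value was not tested. The 9 listed G2/M genes summed to 163 RPKM in the wild type and 110 in ago1-36, 1.49-fold lower, with a median log2 ratio of -0.52. KN alone supplied 97.1 and 56.9 RPKM of these sums, so they mostly reflect KN. The 6 listed B cyclins among them summed to 58.4 and 43.6 RPKM, 1.34-fold lower.

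The listed replication genes differed little. PCNA2, a sliding clamp of the DNA polymerase, stood at 30.1 RPKM in the wild type and 25.6 in ago1-36, 1.18-fold lower (1.03 to 1.35). MCM5, a subunit of the replicative helicase, stood at 12.5 and 10.8 RPKM, 1.15-fold lower (1.0 to 1.33). With CYCA3;2 these were the 3 listed genes of 12 assigned to G1/S, and they summed to 53.2 RPKM in the wild type and 51.3 in ago1-36. Their median log2 ratio was -0.19, and 0.13 without PCNA2, which overlaps another gene. PCNA2 shares 20.3% of its 50-base words with that gene, AT2G29560. The expression of the E2F, DEL1 and RBR1 genes and of the other MCM subunits was not analysed here.

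**Figure D2:**
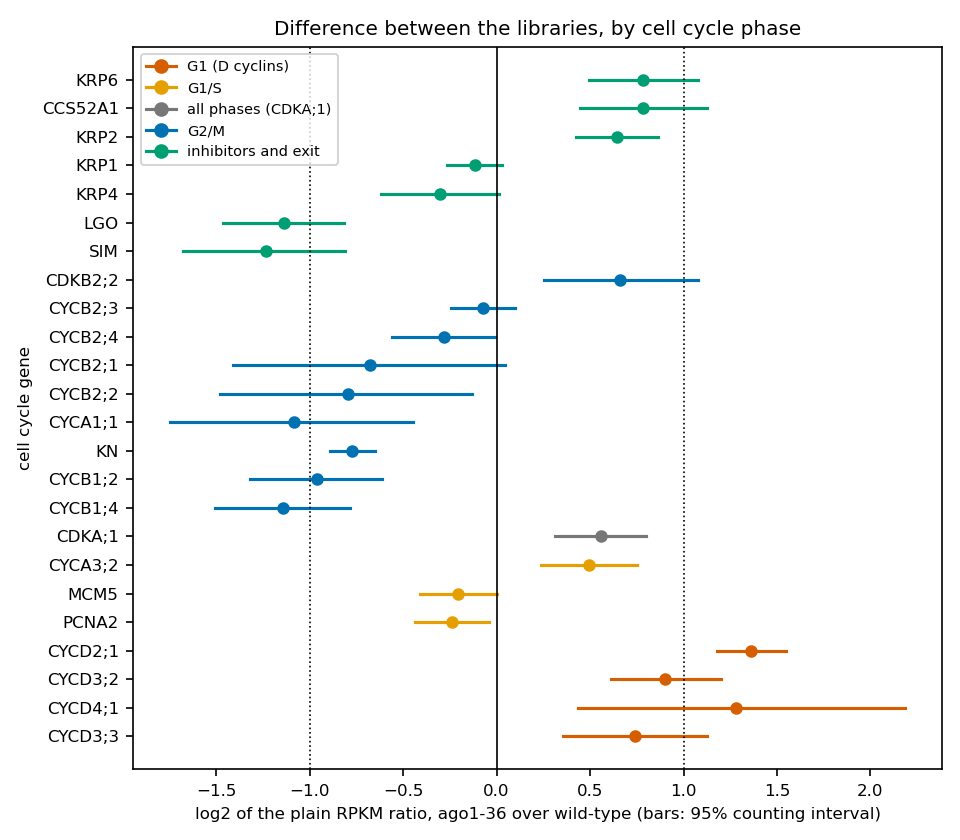
Log2 of the plain RPKM ratio (ago1-36 over wild-type) of each listed member, with 95% counting intervals as bars, dotted lines at 2-fold and colours by phase. The D cyclins lie to the right of 0, and the B cyclins, CYCA1;1 and KN to the left, with intervals of CYCB2;1 and CYCB2;3 that cross 0.

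Both listed SIM members were lower. SIM (SIAMESE, AT5G04470), an inhibitor of mitotic kinase activity that promotes endoreduplication in trichomes, stood at 14.2 RPKM in the wild type and 6.04 in ago1-36, from 154 and 65 reads. It was 2.36-fold lower (1.75 to 3.20), and 6.37% of kept genes had a lower log2 ratio. Its relative LGO (AT3G10525), needed for the endoreduplicated giant cells of sepals, stood at 28.7 and 13.0 RPKM, 2.2-fold lower (1.76 to 2.75). SIM and LGO overlap the annotated genes AT5G04475 and AT3G10527, with which they share 25.4% and 32.7% of their 50-base words. The part of these overlaps in the values was not tested. The pair summed to 42.9 RPKM in the wild type and 19.1 in ago1-36, 2.25-fold lower.

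The KRP genes, inhibitors that bind CDKA and D cyclins, showed no common direction. KRP6 stood at 10.6 RPKM in the wild type and 18.1 in ago1-36, 1.72-fold higher (1.41 to 2.11). KRP2 stood at 20.5 and 32.1 RPKM, 1.56-fold higher (1.34 to 1.82). KRP1, the most abundant inhibitor, stood at 58.0 and 53.5 RPKM, with an interval that included 1 (0.976 to 1.2 for wild type over ago1-36). KRP4 stood at 9.90 and 8.03 RPKM, 1.23-fold lower with an interval that also included 1 (0.992 to 1.53). It overlaps the listed gene AT2G32720, with which it shares 36.7% of its 50-base words. The 4 KRP genes summed to 99.0 RPKM in the wild type and 112 in ago1-36. CCS52A1, which with the anaphase-promoting complex promotes exit from mitotic cycles, stood at 4.59 and 7.88 RPKM, 1.72-fold higher (1.36 to 2.18). The exit genes SIM and LGO on one side and CCS52A1 on the other thus differed in opposite directions. The median log2 ratio of the 7 listed genes of inhibition and exit was -0.11. Without SIM, LGO and KRP4, which overlap other genes, it was 0.64, and no member was then past 2-fold lower.

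MSA cores were counted in the windows of all members, as a description. On either strand, 20.6% of the 27443 nuclear protein-coding genes held at least 1 AACGG in the 250 bases before the start, and 3.62% held at least 2. Of the 18 G2/M members, listed or not, 10 held at least 1 and 8 at least 2. For E2F factors, TTTCCCG was searched first on both strands. Then followed TTTGGCG as the second form, TTTCGCG as the third and TTTGCCG as the last. Any of them was found in 5.57% of all windows. They were in 5 of the 12 G1/S windows and in none of the 18 G2/M windows. Among the listed members, the 9 with an MSA core had a median log2 ratio of -0.42, with 7 below 0. The 15 without one had a median of 0.46, with 7 below 0 and 8 above. None of these 15 lay between -0.19 and 0.46, so this median stood at the edge of a gap. A core was held by 7 of the 9 listed G2/M genes and by none of the 4 listed D cyclins. The contrast of the medians therefore cannot be told apart from phase. The number of cores did not order the values. KRP1 with 6 cores and CYCB2;3 with 3 had log2 ratios of -0.11 and -0.07, while CYCB1;4 with none in this window had -0.99.

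**Figure D3:**
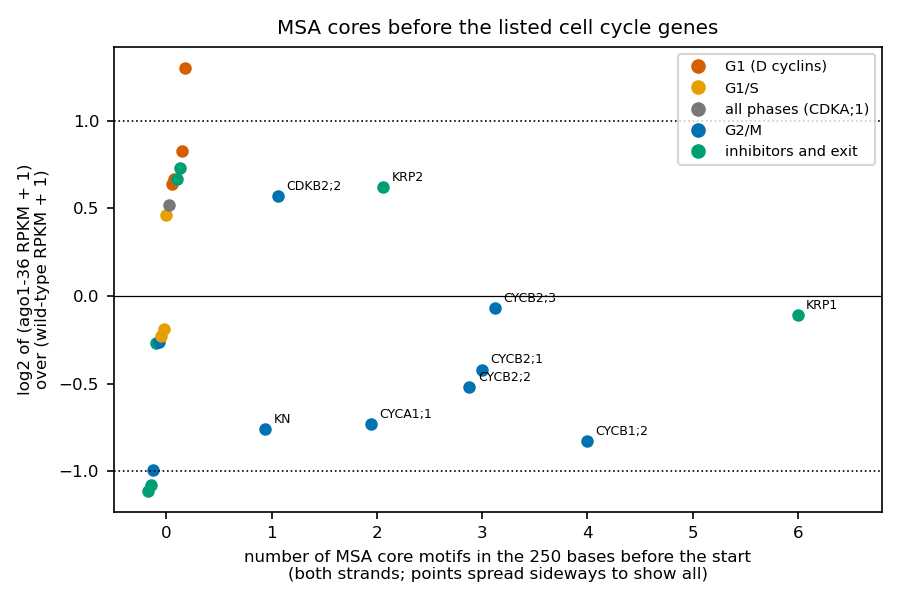
Log2 ratio of RPKM plus 1 of the 24 listed members against the number of MSA cores in the 250 bases before the start, coloured by phase, with dotted lines at 2-fold. CYCB1;2 with 4 cores lies at -0.83 and KRP1 with 6 at -0.11, and members without a core span -1.11 to 1.3.

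Other genes of the cell cycle were read from lists of 109 genes, of which 42 were listed and kept. On the scale of RPKM plus 1, 1 was past 2-fold higher and 3 past 2-fold lower, beside 19.6% and 8.38% of all kept genes. A value below 0 was found for 33 of the 42, with a median of -0.53. Over all kept genes 51.5% were below 0, with a median of -0.04. Because genes of slightly higher level were scarce in the table, these counts describe the listed genes and not all 109. Without the 4 genes that passed the filter through 1 library only, 32 of 38 were below 0, with a median of -0.55. All 8 listed genes of mitosis and cytokinesis were lower, with a median of -0.67. One of them, EDE1, passed the filter through the wild type alone, and the other 7 had a median of -0.73. CDC20.1, an activator of the anaphase-promoting complex at the exit from metaphase, stood at 8.47 RPKM in the wild type and 3.33 in ago1-36, 2.55-fold lower (1.96 to 3.34). Its neighbour CDC20.2, named here as its near copy, shares 33.2% of its 50-base words with it, and the pair summed to 12.6 and 5.34 RPKM. POK2, a kinesin that guides the division plane, stood at 4.96 and 2.42 RPKM. POK1, its relative, stood at 2.76 and 1.57 RPKM. The cytokinesis kinesin HIK stood at 17.3 and 12.1 RPKM.

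The 12 listed genes of histones H3.1 and H4, which package newly copied DNA, all had lower values, with a median of -0.76. Of all kept genes, 51.5% had a lower value. On the scale of RPKM plus 1, 1 of the 12 was past 2-fold lower, beside 8.38% of all kept genes. The 12 summed to 740 RPKM in the wild type and 432 in ago1-36, 1.71-fold lower. The values ran from AT5G59690, at 73.7 and 35 RPKM, to AT1G07660, at 26.8 and 21.6 RPKM. Next to these ends lay the H4 genes AT2G28740, at 34.7 and 18.1 RPKM, and AT1G07820, at 96.3 and 61.9 RPKM. These copies are similar, and reads may have been split between them by the authors' counting.

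The 4 listed genes of the anaphase-promoting complex and its regulators were also lower, with a median of -0.32, beside 51.5% of all kept genes. CCS52B, an activator expressed around mitosis, stood at 18.3 RPKM in the wild type and 8.59 in ago1-36, 2.13-fold lower (1.81 to 2.51), and overlaps other annotated genes. OSD1, an inhibitor of the complex, stood at 5.15 and 3.74 RPKM, and its interval included 1 (0.989 to 1.92). The subunits APC2, at 2.86 and 2.22 RPKM, and HBT, at 6.88 and 5.92 RPKM, also had intervals that included 1. Thus CCS52B was lower while its relative CCS52A1 was higher. The 4 listed regulators of the E2F, DP and MYB3R lists had a median of -0.48. Among them MYB3R1, an MSA-binding factor, stood at 4.41 and 2.71 RPKM, and DEL3, an atypical E2F, at 2.79 and 1.57. DPB, a partner of E2F, stood at 7.61 and 5.41 RPKM and TSO1, a CXC-domain protein, at 7.87 and 6.12.

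Of 22 replication licensing and fork genes 5 were listed, 3 with higher and 2 with lower values and a median of 0.47. One of them, PSF1, passed the filter through ago1-36 alone, and the other 4 were 2 higher and 2 lower, with a median of 0.08. PSF1, of the GINS complex, stood at 0.611 RPKM in the wild type and 2.05 in ago1-36, and ORC4, of the origin recognition complex, at 3.81 and 6.18. POL2A, the catalytic subunit of DNA polymerase epsilon, stood at 2.71 and 1.94 RPKM. CDC45, a helicase partner, stood at 1.89 and 1.33 RPKM, with an interval that included 1 (0.929 to 2.18). TSO2, a ribonucleotide reductase subunit, stood at 38.3 and 27.5 RPKM, and FAS2, of chromatin assembly factor 1, at 3.56 and 6.46.

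The remaining lists held few listed genes. Among other cyclins, CYCD5;1 stood at 0.638 RPKM in the wild type and 2.06 in ago1-36, CYCA1;2 at 0.248 and 1.05, and CYCB3;1 at 2.67 and 1.55. The first 2 passed the filter through ago1-36 alone. CDKF;1, a kinase that activates other CDKs, stood at 17.1 and 25 RPKM. AT5G40460, which the reference annotates as a CDK inhibitor like SMR3, had the highest ratio of all these genes. It stood at 1.17 RPKM in the wild type and 9.33 in ago1-36, 7.96-fold higher (4.23 to 16.5), from 11 and 87 reads, in contrast to SIM and LGO. In the DNA damage list, GMI1 stood at 1.2 and 2.99 RPKM and PARP2, a poly(ADP-ribose) polymerase, at 3.14 and 1.90.

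**Figure D4:**
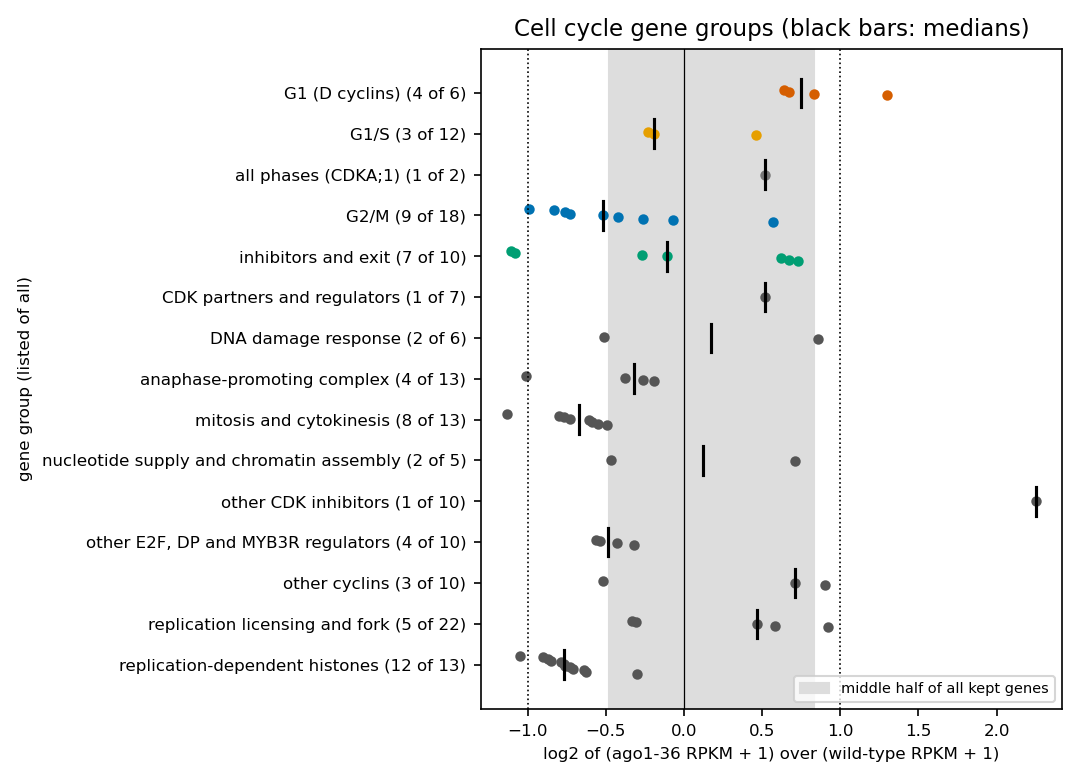
Log2 ratio of RPKM plus 1 for the members by phase (coloured) and for the other cell cycle lists (grey), with black bars for medians, dotted lines at 2-fold and a grey band from the lower to the upper quartile of all kept genes (-0.48 to 0.83). The histone and mitosis lists lie mostly to the left of the band, and 3 of the 4 D cyclins lie inside its right edge or on it.

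Marker genes of several cell types also differed between the libraries. In whole seedlings, fewer cells of a type and less RNA per cell cannot be told apart. Of 6 shoot meristem markers 3 were listed, with a summed level of 10.4 RPKM in the wild type and 5.29 in ago1-36. Among them STM stood at 3.33 and 1.46 RPKM and KNAT1 at 6.78 and 2.38, while KNAT2 was higher, at 0.267 and 1.45. KNAT2 rests on 5 and 27 reads and passed the filter through ago1-36 alone. Of 6 root meristem markers 2 were listed, SCR at 21.2 and 14.4 RPKM and SHR at 8.48 and 6.63, which summed to 29.7 and 21.1. PLT1, PLT2, RGF1 and WOX5 were not listed, so the level of the root meristem itself cannot be read from this list. The 3 listed of 8 stomatal lineage markers summed to 12.0 RPKM in the wild type and 4.98 in ago1-36. The 4 listed of 5 trichome markers summed to 23.7 and 19.4 RPKM, most of it from GL2, at 17.7 and 11.4. GL1 stood at 2.02 and 0.321 RPKM, from 19 and 3 reads, and passed the filter through the wild type alone. TRY was higher in ago1-36, at 1.25 and 5.93 RPKM, from 11 and 52 reads.

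Among markers of differentiated cells, all 9 of leaf mesophyll were listed and summed to 13269 RPKM in the wild type and 7193 in ago1-36. The 5 listed of 6 markers of root hairs and root epidermis (PRP3, LRX1, EXPA18, TTG2 and RHS19) summed to 42.8 and 9.09 RPKM. The 6 listed of 8 seed and embryo markers summed to 0.448 RPKM in the wild type and 65.4 in ago1-36, and SESA1, SESA2 and OLEO2 were at 0 in the wild type. All 6 passed the filter through ago1-36 alone, the library in which they are high. The part of any of these in the cell cycle differences was not tested.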

How the data were processed

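Per the labels' protocols, TRIzol was used to extract total RNA of whole seedlings, and libraries followed the SMART approach. The submitters' processing notes name TopHat2 2.0.11 and TAIR10. How reads were counted, with which annotation and with what regard to strand, is not given in the sources used here. Per the file headers, the deposited table holds RPKM per gene in both libraries, a log2 fold change and a GFOLD score, all made by the authors. Of 11957 lines naming a gene, 291 repeats were dropped, and 2 fragment lines were not used. The authors' log2 fold change was shifted by -0.19 from the log2 RPKM ratio. Because it followed reads plus 1, whole reads could be recovered. Of 1622 genes with 5 to 100 reads in both libraries, 1622 came out whole within 0.1.

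Ratios used a pseudocount of 1 and a filter of 1 RPKM. No test was made with 1 library per genotype. No molecular identifiers are described, so reads may not be independent molecules and intervals cover counting error only. The members, phases and lists were chosen with earlier results of these data known. All listed members are named, and of each list at most the 2 highest and 2 lowest genes, with CDC20.2 added after its values were seen. Names, overlaps, shared 50-base words and windows came from the RefSeq TAIR10.1 annotation, where 11556 of 11666 identifiers matched. In all, 10 alternatives were tried. Leaving out CYCD2;1, or genes that passed the filter through 1 library only, was added after seeing the data. The steps were tested on simulated data, with Python 3.11.15, numpy 2.4.6, pandas 2.3.3 and scipy 1.17.1.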

Additional observations from a re-analysis of the deposited data

How the results depend on the processing

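No paired analysis was possible because each genotype has 1 library. Of 229 values of single members under the 10 alternatives first chosen, 217 stayed, 12 moved and none changed sign. Changing the filter or leaving out members cannot alter a single member's value, so those values stayed by construction. All moved values came from the log2 change or, mostly, the GFOLD score of the authors' deposited table. Under the GFOLD score they were higher members that came closer to equality, such as CYCD3;3, from 0.64 to 0.12. A value counted as moved when its shift exceeded the distance from the middle to the end of its log2 counting interval. The count of members past 2-fold higher, 1 in the report, was 2 with a pseudocount of 0.1, 2 with the log2 change given in the authors' deposited table and 0 with its GFOLD score. The count past 2-fold lower, 2 in the report, was 4, 5 and 0 in the same order. It was 0 without members that overlap another gene, because SIM and LGO both do. Without such members the median of the inhibitors and exit genes turned from -0.11 to 0.64, since SIM, LGO and KRP4 were left out, and that of G1/S genes from -0.19 to 0.13, since PCNA2 was left out. The G2/M median was -0.96 with the log2 change given in the authors' deposited table, and the G1 median was 0.26 with its GFOLD score. Rescaling moved the median of all kept genes from -0.04 to values between -0.11 and 0.01, and the log2 change given in the authors' deposited table moved it to -0.23. Of all genes past 2-fold, 70.0% were higher in the report's measure and 55.7% by the log2 change given in the authors' deposited table. Leaving out CYCD4;1, which passed the filter through ago1-36 alone, gave a median of -0.19 for all members. Depth limits the values of CYCD4;1, CYCB2;1, CYCB2;2 and CYCA1;1, which rest on fewer than 100 reads in each library.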

Other observations

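The MSA core was also read over all kept genes, as a description. Those with no core in the 250 bases before the start numbered 8645 and had a median log2 ratio of -0.01. The 1936 genes with 1 core had -0.09, the 347 with 2 had -0.11 and the 92 with 3 or more had -0.16. The share past 2-fold lower did not follow this order. It was 8.33% with no core, 8.94% with 1, 7.2% with 2 and 3.26% with 3 or more. The share past 2-fold higher was 20.4%, 17.0%, 15.0% and 10.9% in the same order. Among the cell cycle lists the core was most frequent before the histone genes, where 9 of 13 windows held it. With the E2F words, the 10454 kept genes without one had a median of -0.04 and the 534 with 1 had -0.07.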
